A study of Mus with 6 samples.

Results

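The family of miR-130a, miR-130b, miR-301a and miR-301b was followed across small RNA libraries of mouse adipocytes. Its members were taken by name, as every listed mature strand of the precursors mir-130a, mir-130b, mir-301a and mir-301b. This gave 8 strand names, of which 7 were listed in all 6 libraries, among the 929 known mouse miRNA names common to all of them. The labels describe adipocytes of genotype WT and strain C57BL/6, in 3 control libraries and in 3 libraries of animals or cells exposed to chronic intermittent hypoxia (CIH), repeated falls in oxygen of the kind used to model sleep apnoea. The labels give no age, sex, fat depot, exposure regime or number of animals, nor whether the exposure was given to animals or to cultured cells. Total counts ran from 6291101 to 11264151 per library, so that a single read was worth 0.0888 to 0.159 CPM (each count divided by the total of its library and scaled alike in all). Values per library are given in the order of libraries 1, 2 and 3.

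A miRNA precursor is cut into a pair of strands, the 5p strand from its 5′ side and the 3p strand from its 3′ side, and usually one of them is kept to guide Argonaute proteins to messenger RNAs. The 3p strands of miR-130a, miR-130b, miR-301a and miR-301b share their seed, the stretch near the 5′ end that pairs with targets, and can therefore bind many of the same messages. Among these is the message of PPAR gamma, the nuclear receptor that drives adipocyte differentiation, and miR-130 has been described as a brake on adipogenesis. In pulmonary vessels the family is known as hypoxia-responsive. The libraries hold small RNA alone, so PPAR gamma and its message were not measured.

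The precursors lie at 3 places on GRCm38. Mir130a is on chromosome 2 (84741115 to 84741178), between the protein-coding genes Ypel4 and Serping1 and within the span of neither. Mir130b (17124061 to 17124142) and Mir301b (17124400 to 17124496) are neighbours on chromosome 16 with 257 bases between them, and both fall within the span of 2610318N02Rik. The precursor of miR-301a is on chromosome 11 (87113004 to 87113089) within the span of Ska2, a component of the spindle and kinetochore complex. Whether these positions are exonic or intronic was not analysed here.

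The family was a small part of these libraries, and miR-130a-3p made up most of its 3p strands. Both arms of all members together came to 50.7, 53.8 and 14.8 CPM in the controls, against 47.7, 41.7 and 47.5 CPM under CIH. This was at most 0.00538% of a library. Control library 3 was the only one below the rest, and the other 5 lay close together. miR-130a-3p supplied 81.2% to 93.8% of the 3p strand reads of the family, and its rank among the 929 names ran from 171 to 229.

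The libraries numbered 3 stood apart from the others in both groups, and control library 3 most of all. Their tables list a different set of names (1186 against 1053), and miR-148a-3p took 49.4% of control library 3 and 24.9% of CIH library 3, against 2.81% to 5.53% elsewhere. Scaling factors from the trimmed mean of M values (TMM), which correct for such shifts in composition, were 0.636 for control library 3 and 0.937 to 1.20 for the other 5. The comparisons of CIH with control below are therefore set beside their values in the 4 libraries numbered 1 and 2. Markers of other cell types were low for leukocytes (4 of 4 listed, summed at 0.363 to 4.29 CPM in control and 0.266 to 3.27 CPM in CIH) and higher for endothelium (2 of 2 listed, 33.8 to 137 and 73.1 to 104 CPM). The 5 stromal miRNAs, with the abundant miR-143-3p among them, summed to 63644 to 147332 CPM in control and 101869 to 121813 CPM in CIH, and no marker in these lists stood at 0 in every library.

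mmu-miR-130a-3p, the most abundant strand and the one best known for acting on PPAR gamma, stood at 33.5, 38.2 and 6.78 CPM in the controls, against 33.3, 26.8 and 25.7 CPM under CIH. The value in control library 3 rests on 56 reads, with an exact 95% Poisson interval of 5.12 to 8.80 CPM that covers counting error only. The groups overlapped, with control library 3 the lowest of all 6 in CPM and control libraries 1 and 2 the highest. After TMM scaling control library 1 (28.0 CPM) came below CIH libraries 1 (29.0 CPM) and 2 (28.6 CPM). Control library 3 remained the lowest (10.7 CPM). The control mean was 26.2 ± 16.9 CPM and the CIH mean 28.6 ± 4.07 CPM (SD, n = 3 each). In control library 3 the endothelial markers miR-126a-3p and miR-126a-5p were also lowest (33.8 CPM against 73.1 to 137 CPM), and so were the stromal sum and the epithelial sum (1.82 CPM against 9.14 to 82.8 CPM). The muscle sum was highest there (111 CPM against 11.6 to 38.7 CPM). These sums are CPM without TMM scaling, and the low TMM factor of control library 3 (0.636) would raise all its values relative to the others. How much of the low sums comes from scaling was not tested. The part of these cell types in the level of miR-130a-3p was not tested, and fewer cells of a type and less RNA per cell cannot be told apart in such libraries.

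miR-130a-5p, the opposite strand of the same precursor, was a minor product. It stood at 2.70, 2.78 and 1.21 CPM in the controls, against 2.04, 1.89 and 5.68 CPM under CIH. In CPM control library 3 was again the lowest, CIH library 3 was the highest, and the groups overlapped. With TMM scaling CIH library 1 (1.78 CPM) came below control library 3 (1.90 CPM), and CIH library 3 remained the highest (5.12 CPM).

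miR-301a gave more 5p than 3p reads. miR-301a-5p stood at 7.47, 6.79 and 2.30 CPM in the controls, against 6.82, 8.26 and 10.3 CPM under CIH. mmu-miR-301a-3p, the strand with the family seed, stood at 3.81, 4.01 and 1.09 CPM in the controls, against 1.77, 2.09 and 2.66 CPM under CIH. Among the libraries numbered 1 and 2 both CIH values of the 3p strand were below both control values. Of the 456 miRNAs tested, 32.7% were likewise lower in both CIH than in both control libraries numbered 1 and 2. In CPM control library 3 was below all CIH libraries for the 3p strand. With TMM scaling it stood at 1.71 CPM, above CIH library 1 (1.54 CPM).

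From miR-130b most reads were of the 5p strand. miR-130b-5p stood at 2.86, 1.85 and 2.91 CPM in the controls, against 3.41, 2.39 and 2.40 CPM under CIH, with overlapping groups and no drop in control library 3. Scaled by TMM, control library 3 was the highest of all 6 (4.57 CPM against 1.68 to 2.97 CPM), and the groups still overlapped. mmu-miR-130b-3p, which carries the family seed, was seen in 2, 2 and 4 reads in control and 3, 2 and 7 reads in CIH. These are 0.199 to 0.621 CPM, and 4 of the 6 counts were at or below the floor of 3 counts, so no difference was detectable at this depth.

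miR-301b was barely present. miR-301b-3p was counted once each in CIH libraries 2 and 3 and not in the other 4. In those 4, the upper ends of the exact Poisson intervals for a count of 0 ran from 0.379 to 0.586 CPM. miR-301b-5p was listed only in the libraries numbered 3, at 0 reads in both. The neighbouring precursors on chromosome 16 gave 156 reads of miR-130b and 2 of miR-301b in all 6 libraries together.

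**Figure D1:**
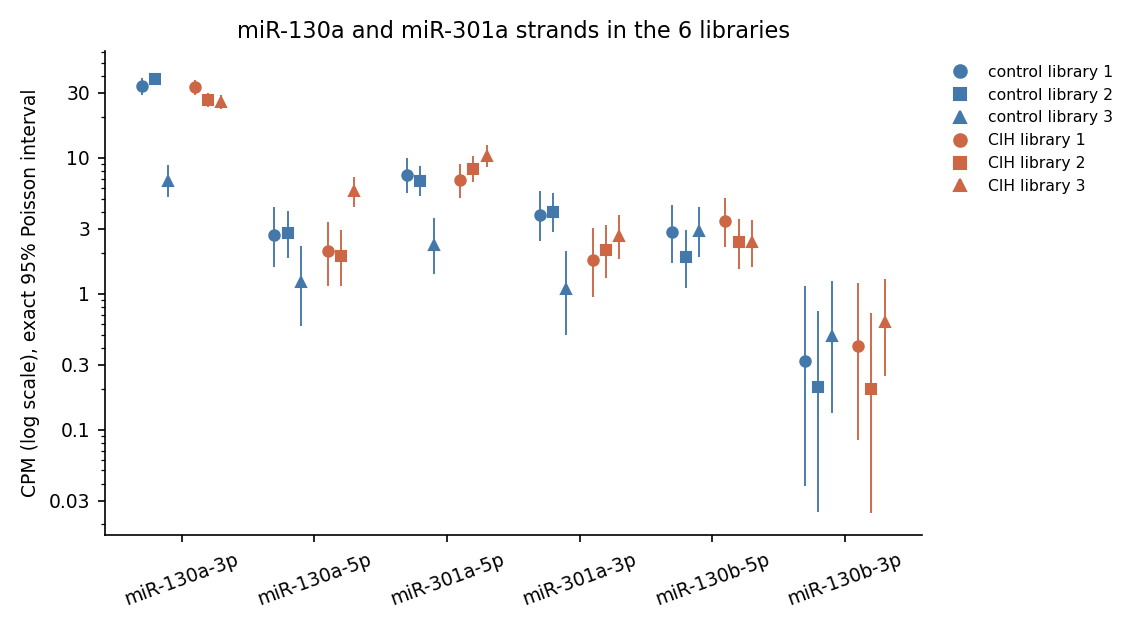
CPM of 6 strands (log axis) in each library, with exact 95% Poisson intervals that cover counting error only. Blue marks control and orange CIH, and circles, squares and triangles mark libraries 1, 2 and 3. Control library 3 lies low for miR-130a-3p (6.78 CPM) and both strands of miR-301a, but not for miR-130b-5p (2.91 CPM). These CPM are without TMM scaling.

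In order of level, miR-130a-3p was first in all 6 libraries, with 2.50 to 5.62 times the reads of miR-301a-5p. miR-301a-5p was second in 5 of 6 libraries and came after miR-130b-5p in control library 3. The next 3 strands, miR-130a-5p, miR-130b-5p and miR-301a-3p, averaged 2.72 ± 1.56, 2.64 ± 0.539 and 2.57 ± 1.16 CPM over all libraries (SD, n = 6) and changed places from library to library, so their order was not resolved. miR-130b-3p was last of these 6 strands in every library. Levels of different strands were compared as counted, with no correction for how well each strand is captured.

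Whether CIH changed the family was tested with edgeR's quasi-likelihood test on all 6 libraries, in which 5 of the 8 strands had enough reads to be tested. None passed. The background is 0% as well: 0 of 456 miRNAs were called at an adjusted p under 0.05, with 23 at an unadjusted p under 0.05, while DESeq2 called 0 (37 before adjustment) and so did limma-voom (21 before adjustment). The log2 difference, CIH against control, was 0.14 (SE 0.53, adjusted p = 0.988) for miR-130a-3p and 0.42 (SE 0.58, adjusted p = 0.970) for miR-130a-5p in that edgeR fit. For miR-301a-3p it was -0.47 (SE 0.52, adjusted p = 0.934), for miR-301a-5p 0.58 (SE 0.50, adjusted p = 0.934) and for miR-130b-5p -0.15 (SE 0.55, adjusted p = 0.988). The standard errors near 0.5 leave differences of this size inside the spread between libraries. No tested strand had CPM ranges that did not overlap between the groups, a pattern shown by 11.2% of the miRNAs tested.

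Within the libraries numbered 1 and 2, where 9.37% of 459 miRNAs were called, again 0 of the 5 strands passed. miR-301a-3p had the largest log2 difference of the 5 there, -0.85 (SE 0.48, edgeR adjusted p = 0.329). By library number its log2 CPM ratio was -1.11 for libraries 1 and -0.94 for libraries 2. miR-130a-3p differed by -0.13 (SE 0.31, edgeR adjusted p = 0.861), miR-130a-5p by -0.33 (SE 0.53), miR-301a-5p by 0.25 (SE 0.38) and miR-130b-5p by 0.45 (SE 0.51). The signs for miR-130a-3p, miR-130a-5p and miR-130b-5p were opposite to those in all 6 libraries, so the direction for these strands rested on the pair numbered 3. That of miR-130b-5p also turned with the scaling, to 0.10 over all 6 libraries with total counts in place of TMM.

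In the pair numbered 3, where a single library stands for each group and no spread can be estimated, 4 strands were higher in CIH. miR-130a-3p was 3.80 times, miR-130a-5p 4.69 times, miR-301a-5p 4.48 times and miR-301a-3p 2.44 times as high in CPM. miR-130b-5p went the other way, at 0.825 times. After TMM scaling the directions were the same and these ratios were smaller, at 2.17, 2.69, 2.56 and 1.40 in the same order, and miR-130b-5p stood at 0.472 times. The test of whether the effect of CIH differed between the libraries numbered 3 and the others, an interaction term in edgeR, called 30.3% of 456 miRNAs and 0 of the 5 strands. The interaction for miR-130a-3p was 1.24 on the log2 scale (SE 0.57, adjusted p = 0.0998). That for miR-130b-5p was -1.53 (SE 0.86, adjusted p = 0.189). The fit takes the spread of the single libraries of this pair from the other 4.

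**Figure D2:**
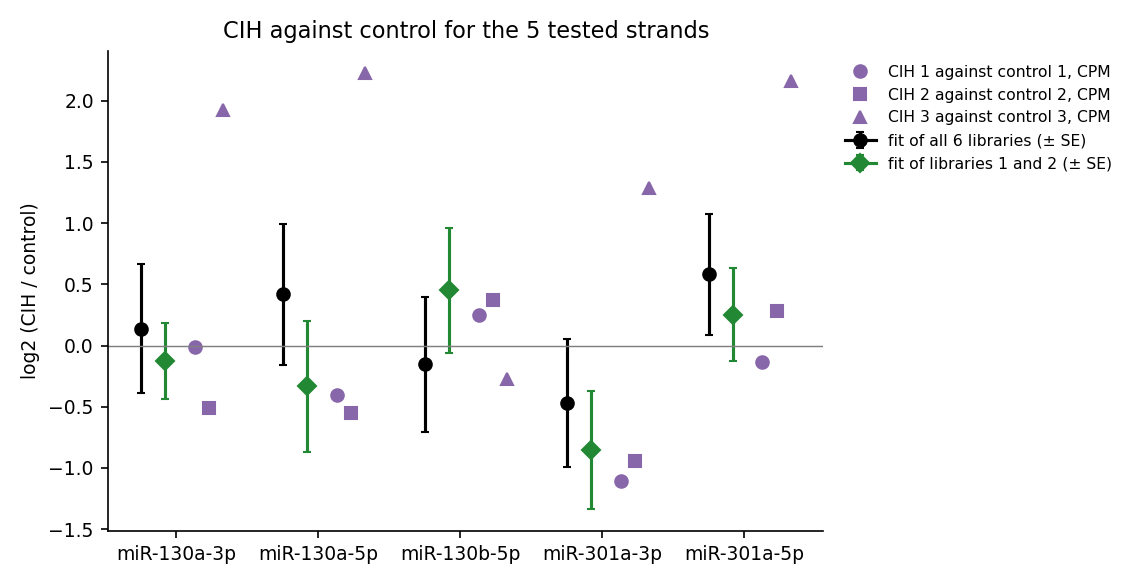
Log2 ratio of CIH to control for the 5 tested strands. Black circles and green diamonds are edgeR fits of all 6 libraries and of libraries 1 and 2 (bars, ± SE), and purple symbols are CPM ratios between libraries of the same number. The triangles of the pair numbered 3 lie above 1 for 4 strands, up to 2.23 for miR-130a-5p, and at -0.28 for miR-130b-5p.

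The 3p strands, summed, gave 37.7, 42.4 and 8.35 CPM in the controls, against 35.4, 29.2 and 29.1 CPM under CIH. The 5p strands gave 13.0, 11.4 and 6.42 CPM in the controls, against 12.3, 12.5 and 18.4 CPM under CIH. In the 3p sum the control values spanned a wider range than the CIH values, while in the 5p sum the spreads were alike (SD 3.45 CPM in each group). These sums are CPM without TMM scaling. The low TMM factor of control library 3 (0.636) would raise its sums relative to the others, so the like spreads hold for unscaled CPM only. The groups overlapped in both sums. The mean 3p sum of the controls was 29.5 ± 18.4 CPM and that of the CIH libraries 31.2 ± 3.63 CPM (SD, n = 3 each), a difference well inside the spread of the controls. Its log2 ratio was 0.08 in all 6 libraries and -0.31 in the libraries numbered 1 and 2.

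The split of each precursor between its strands is a ratio inside a library and does not depend on how libraries are scaled. miR-130a was read mainly as its 3p strand in all 6 libraries, while miR-301a and miR-130b were read mainly as their 5p strands in all 6. Of 186 precursors with both strands listed and at least 100 reads in all, 48.9% had more 5p reads in every library, 32.8% had more 3p reads in every library and 18.3% were mixed. The 5p strand of miR-130a made up 7.46%, 6.78% and 15.2% of its reads in the controls, against 5.79%, 6.60% and 18.1% under CIH. Here both libraries numbered 3 were the highest of their group. The 5p share of miR-130b was 90.0%, 90.0% and 85.7% in control and 89.3%, 92.3% and 79.4% in CIH, on 20 to 34 reads per library, and the groups overlapped.

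For miR-301a the 5p share was higher in each CIH library than in any control library. It was 66.2%, 62.9% and 67.9% in the controls, against 79.4%, 79.8% and 79.5% under CIH. The means were 65.6% ± 2.55 and 79.5% ± 0.235 (SD, n = 3 each), a difference of 13.9 percentage points that had the same sign in the pair numbered 3 (11.6 points) and in the libraries numbered 1 and 2 (15.1 points). Ranges that did not overlap in this direction were found for 8 of the 186 precursors, which is 4.3%, and for the same share in the other direction. A mean difference of this size or larger, in either direction, was found for 15 of the 186, of which 6 had ranges that did not overlap.

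The depth behind these shares was small. miR-301a had 71, 105 and 28 reads in the controls, against 63, 104 and 146 under CIH. The exact 95% binomial intervals were 54.0% to 77.0%, 52.9% to 72.1% and 47.6% to 84.1% in control and 67.3% to 88.5%, 70.8% to 87.0% and 72.0% to 85.7% in CIH. These intervals cover counting error only, and every control interval overlapped every CIH interval. In a limma test of the log2 ratio of 5p to 3p reads over the 186 precursors, added after these values were seen, miR-301a differed by 1.02 (SE 0.42). Its limma adjusted p = 0.979 (0.0460 before adjustment) did not pass. The background there is 0% of precursors called, with 6 at an unadjusted p under 0.05. The log2 ratio of miR-130a differed by -0.05 (SE 0.66) and that of miR-130b by -0.06 (SE 0.72). In the libraries numbered 1 and 2 the limma values were 1.08 (SE 0.42, adjusted p = 0.535) for miR-301a, -0.21 (SE 0.41) for miR-130a and 0.19 (SE 0.98) for miR-130b.

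**Figure D3:**
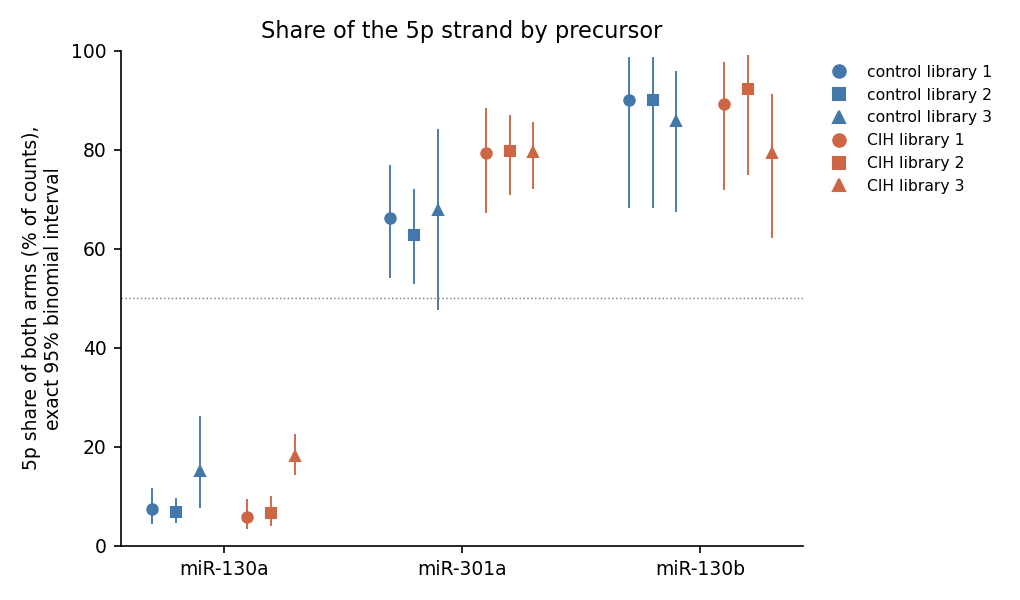
Share of the 5p strand in the reads of each precursor, in percent, for each library with exact 95% binomial intervals that cover counting error only. The dotted line marks equal strands. The 3 CIH libraries of miR-301a sit at 79.4% to 79.8%, above the 3 controls at 62.9% to 67.9%, with intervals that are wide in both groups.

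**Figure D4:**
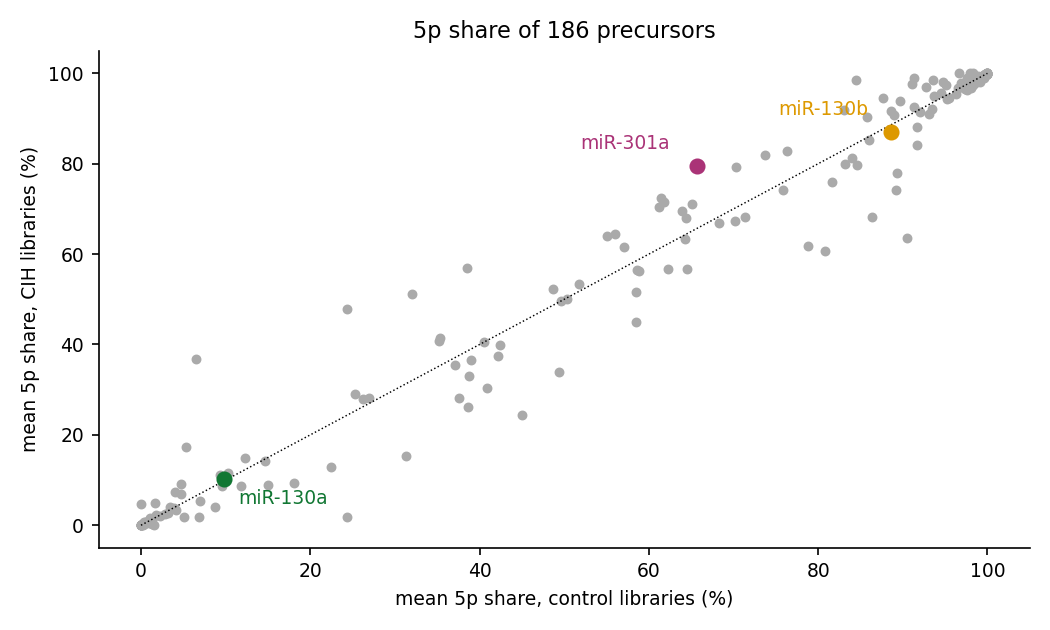
Mean 5p share in control (horizontal) and CIH (vertical) libraries for 186 precursors, in percent, each point 1 precursor, with the line of equality dotted. miR-130a and miR-130b lie near the line and miR-301a lies above it, at 65.6% and 79.5%.

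miR-27a-3p and miR-128-3p, which are also reported to act on PPAR gamma, were more abundant than the whole family in each library. miR-27a-3p, like miR-130a-3p a reported brake on adipogenesis, stood at 8316, 5472 and 512 CPM in the controls, against 5481, 4550 and 2254 CPM under CIH, with control library 3 lowest as for miR-130a-3p. miR-128-3p stood at 335, 215 and 159 CPM in the controls, against 423, 267 and 157 CPM under CIH. Of the 4 miRNAs in this list, 3 were tested and 0 passed in all 6 libraries or in the libraries numbered 1 and 2, and their median log2 difference of 0.04 over all 6 was close to that of all miRNAs tested (0.04).

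Of 14 miRNAs reported to restrain adipogenesis, 11 were tested and 0 passed in all 6 libraries, with a median log2 difference of 0.04. The smallest p-values belonged to miR-222-3p and miR-221-3p, regulators of the cell cycle inhibitor p27, with log2 differences of 1.33 and 1.49 (edgeR adjusted p = 0.833 for both). Within the libraries numbered 1 and 2, 4.14% of all miRNAs tested rose and 5.23% fell. Of this list 3 of 12 rose there and 0 fell, namely miR-221-3p (1.18), miR-222-3p (1.14) and miR-155-5p (0.76). The median of the list was -0.21, against -0.03 over all miRNAs. The lists were chosen with earlier results of these data known, so such counts are not an independent test. All 17 of the miRNAs reported to favour adipogenesis were tested and 0 passed in all 6 libraries (median -0.26), and 2 of 17 fell within the libraries numbered 1 and 2 (miR-193b-3p, at -1.32, and miR-148a-3p, at -0.66), beside 5.23% of all miRNAs tested. Both strands of miR-210, which HIF-1 is known to induce when oxygen is low, fell there, the 3p strand by 1.75 on the log2 scale. In the pair numbered 3 both were higher in CIH in CPM (43.0 and 59.6 CPM for miR-210-3p, 0.605 and 1.86 CPM for miR-210-5p), a direction that turns for the 3p strand when the TMM factors are applied, and over all 6 libraries neither passed (edgeR adjusted p = 0.885 and 0.838).

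The miRNAs whose profile over the 6 libraries was most like that of a family strand were found by the root mean square difference of centred log2(CPM + 0.5) values among 451 other miRNAs. Values of 1 library share its total, and in CPM control library 3 was the lowest for these strands except miR-130b-5p. The likeness used CPM without TMM scaling. Under that scaling control library 3 was the lowest for miR-130a-3p (10.7 CPM) and miR-301a-5p (3.62 CPM) only. How scaling would change the most alike miRNAs was not tested. For miR-130a-3p these were miR-501-3p (0.17), miR-140-5p (0.22) and miR-450b-3p (0.22), against a median of 0.77 over all. For miR-301a-5p they were miR-3074-2-3p (0.15) and miR-24-2-5p (0.15), whose near-equal counts can stem from the same reads, and miR-450a-1-3p (0.22). For miR-301a-3p they were miR-881-3p (0.14), miR-324-5p (0.23) and miR-106b-5p (0.23). For miR-130a-5p they were miR-669d-5p (0.11), miR-30b-5p (0.15) and miR-145a-5p (0.15), and for miR-130b-5p miR-664-5p (0.18), miR-15b-3p (0.21) and miR-532-5p (0.24).

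These are the nearest of many candidates, so the values within the family are set beside them only as a scale. The closest strands were miR-130a-5p and miR-301a-5p, at 0.40 in the same measure, and the least alike were miR-130a-3p and miR-130b-5p, at 0.91. The strands of miR-130a differed from each other by 0.70 and those of miR-301a by 0.47.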

How the data were processed

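The authors deposited 1 table per library of raw counts, in whole numbers, of the reads assigned to each mature miRNA. The header of 3 tables says FPKM, but their values are whole numbers with a different total in each library. GRCm38, DESeq 1.8.3 and featureCounts 1.5.0-p3 are named, without a role, in the submitters' processing notes. Not given in the sources used here are the aligner, the miRBase release and the handling of reads shared by similar miRNAs, such as miR-130a and miR-130b.

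CPM is a count scaled to the whole library total. The 929 known names in all tables were tested with edgeR 4.0.16 in R 4.3.3 (quasi-likelihood, robust, TMM, filterByExpr with a minimum count of 10), with group as the only term and Benjamini-Hochberg adjustment at 0.05 over all miRNAs tested. DESeq2 1.42.0 and limma 3.58.1 served as alternatives and limma with 0.5 counts added as the test of strand ratios. The fits were tested on simulated data, but the outcome is not given here and no conclusion on their power is drawn from it. Intervals and shares were computed in Python 3.11.15 with scipy 1.17.1. Columns of other samples numbered 0. Positions were read from RefSeq genes on GRCm38.p6.

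The family and the lists were chosen with earlier results of these data known. The text names every strand of the family, the 3 most alike miRNAs of each tested strand and up to 2 miRNAs of smallest p per list. Lists for muscle, erythroid, neuronal, hepatocyte and epithelial miRNAs summed to 11.6 to 111, 21.0 to 154, 50.8 to 181, 2.09 to 5.59 and 1.82 to 82.8 CPM. Deviations from group means correlated at 0.31, 0.34 and 0.41 between libraries of the same number, and a blocked fit took these numbers as pairs. Control library 1 with CIH library 2 (0.40) and control library 2 with CIH library 1 (0.21) were also positive, and the libraries numbered 3 correlated negatively with the other numbers, so within libraries 1 and 2 the numbers were not told apart. The labels do not state separate animals or cultures, and p-values therefore reflect only the spread between libraries, part or all of which may be technical.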

Additional observations from a re-analysis of the deposited data

How the results depend on the processing

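The adjusted p of the 5 tested strands stayed above 0.05 in all 81 combinations of strand and alternative, and the sign changed in 8. For miR-130a-3p the log2 difference was -0.13 in the libraries numbered 1 and 2 and -0.20 without control library 3. For miR-130a-5p it was -0.33 in the libraries numbered 1 and 2 and -0.23 without CIH library 3. For miR-130b-5p it was 0.10 with total counts only, 0.025 with limma-voom, 0.45 in the libraries numbered 1 and 2 and 0.36 without control library 3. The cause was not tested. Leaving out each library in turn gave -0.20 to 0.52 for miR-130a-3p, -0.23 to 0.76 for miR-130a-5p, -0.42 to 0.36 for miR-130b-5p, -0.70 to -0.21 for miR-301a-3p and 0.40 to 0.82 for miR-301a-5p. With the replicate block, which treats equal numbers as pairs, the values were 0.29, 0.24, -0.06, -0.44 and 0.59 for these strands in the same order, and it changed no call.

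The number of miRNAs called was 0 of 456 in all 6 libraries and 43 in the libraries numbered 1 and 2, where it ranged from 9 without control library 2 to 97 without CIH library 2. Within those libraries, leaving out each in turn gave -0.28 to 0.11 for miR-130a-3p and -0.034 to 0.50 for miR-301a-5p, with the change of sign without control library 2 and without CIH library 2. The 5p share of miR-301a differed by 12.5 to 15.0 percentage points when each library was left out, and its log2 ratio by 0.94 to 1.08, with an unadjusted p of 0.0337 to 0.144. The log2 ratios of miR-130a ranged from -0.62 to 0.36 and those of miR-130b from -0.37 to 0.34, with 0.19 for miR-130b in the libraries numbered 1 and 2. Counts of about 30 reads or fewer limit both strands of miR-130b in every library, and miR-130a-5p and miR-301a-3p in most. They also limit miR-301a-5p in control library 3 (19 reads).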
